A study of Mus musculus with 4 samples.

Results

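Interferon regulatory factors (IRFs) and signal transducers and activators of transcription (STATs) are the transcription factors through which macrophages answer interferons and many cytokines. The 9 genes described here, Irf1, Irf2, Irf5, Irf7, Irf8, Irf9, Stat2, Stat3 and Stat6, were taken by symbol from the 17013 genes of the deposited expression values, and all 9 had a row. Wild-type mouse macrophages were grown from bone marrow with M-CSF, seeded on porous inserts above a medium made from freeze-thawed abdominal fat, and kept with artificial necrotic bone fluid (aNBF) for 24 h. The middle layer of that preparation served as the control medium (Con) and its top layer as the high-fat-containing medium (Fat), so both groups received aNBF and material from fat. Poly(A) RNA was sequenced in 2 libraries per medium, and no source used here says whether the libraries of a medium came from separate animals or cultures, so p-values measure only the spread between these libraries.

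A STAT protein is phosphorylated by a Janus kinase (JAK) at a cytokine receptor, pairs with another STAT, and binds gamma-activated sites (GAS) in DNA. Under type I interferon, STAT2 and IRF9 act within the complex ISGF3, which binds interferon-stimulated response elements (ISRE). IRF1 and IRF2 bind much the same element, IRF1 as an activator and IRF2 mostly as its attenuator. IRF5 and IRF7 act below Toll-like receptors and cytosolic sensors, IRF8 is a lineage factor of monocytes and macrophages, STAT3 carries IL-6 and IL-10 signals, and STAT6 carries those of IL-4 and IL-13. Much of the control of these proteins lies in phosphorylation and entry into the nucleus, which RNA sequencing does not measure.

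The regulatory sequence next to the start sites is shown first, because IRF and STAT genes are themselves known to be under the control of STATs and IRFs. Promoter windows of 300 bases, from 250 before to 50 after each annotated start, were taken from RefSeq (build GRCm38.p6) by symbol, and gave 12 windows for the 9 genes. Searched on both strands were the GAS letters TTCNNNGAA, the wider spacing favoured by STAT6 (TTC, any 4 bases, then GAA), and the ISRE letters (GAAA, any 2 bases, then GAAA). GAS letters were found in 8.30% of 32851 mouse promoter windows, the STAT6-type letters in 6.95% and the ISRE letters in 3.44%. These percentages are per window, whereas the 9 genes are counted per gene, and Irf1, Irf8 and Irf9 each had a second window. Among the 9 genes, GAS letters were found in windows of 3, namely Irf1, Irf2 and Irf8, and ISRE letters in windows of 2, namely Irf2 and Stat2. Those windows are printed 5′ to 3′, with matches in capitals and everything else in lower case.

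Irf1, chr11:53769764-53770063, plus strand: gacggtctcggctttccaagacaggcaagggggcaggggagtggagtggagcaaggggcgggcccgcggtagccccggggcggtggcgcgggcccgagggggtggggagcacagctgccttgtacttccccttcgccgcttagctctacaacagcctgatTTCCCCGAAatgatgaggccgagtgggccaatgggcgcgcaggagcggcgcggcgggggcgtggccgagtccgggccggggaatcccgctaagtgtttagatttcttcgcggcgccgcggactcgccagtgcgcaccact
Irf2, chr8:46739495-46739794, plus strand: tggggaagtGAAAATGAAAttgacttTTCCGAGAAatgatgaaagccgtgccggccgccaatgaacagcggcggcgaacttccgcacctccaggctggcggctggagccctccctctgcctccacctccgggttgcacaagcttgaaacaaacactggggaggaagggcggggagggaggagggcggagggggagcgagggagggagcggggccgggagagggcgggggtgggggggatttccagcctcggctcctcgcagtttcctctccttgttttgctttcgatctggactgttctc
Irf8, chr8:120736108-120736407, plus strand: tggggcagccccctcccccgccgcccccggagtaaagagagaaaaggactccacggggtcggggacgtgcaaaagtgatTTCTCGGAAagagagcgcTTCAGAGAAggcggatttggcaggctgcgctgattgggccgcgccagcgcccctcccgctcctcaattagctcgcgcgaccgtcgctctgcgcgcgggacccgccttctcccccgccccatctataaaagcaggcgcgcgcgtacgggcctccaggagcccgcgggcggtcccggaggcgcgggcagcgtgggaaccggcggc
Stat2, chr10:128270248-128270547, plus strand: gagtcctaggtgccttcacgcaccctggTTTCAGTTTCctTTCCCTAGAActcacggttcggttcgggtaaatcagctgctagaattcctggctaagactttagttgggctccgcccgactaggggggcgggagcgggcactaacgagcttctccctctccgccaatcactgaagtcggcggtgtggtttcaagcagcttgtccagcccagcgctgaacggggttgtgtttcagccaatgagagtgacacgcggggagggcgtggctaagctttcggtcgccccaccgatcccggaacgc

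With the start base counted as 0, the GAS match of Irf1 lay at -90 to -82. Irf8 had a pair of GAS matches, at -171 to -163 and at -153 to -145. In Irf2 an ISRE match at -241 to -232 stood ahead of a GAS match at -224 to -216. The Stat2 window held an ISRE match on the minus strand at -222 to -213, followed by a STAT6-type match at -210 to -201. Irf9 had a STAT6-type match at 1 to 10, just after its first start. No match overlapped another. Irf5, Irf7, Stat3 and Stat6 had none of the searched letters in these windows. A match is a description of the letters and not evidence of binding.

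**Figure D1:**
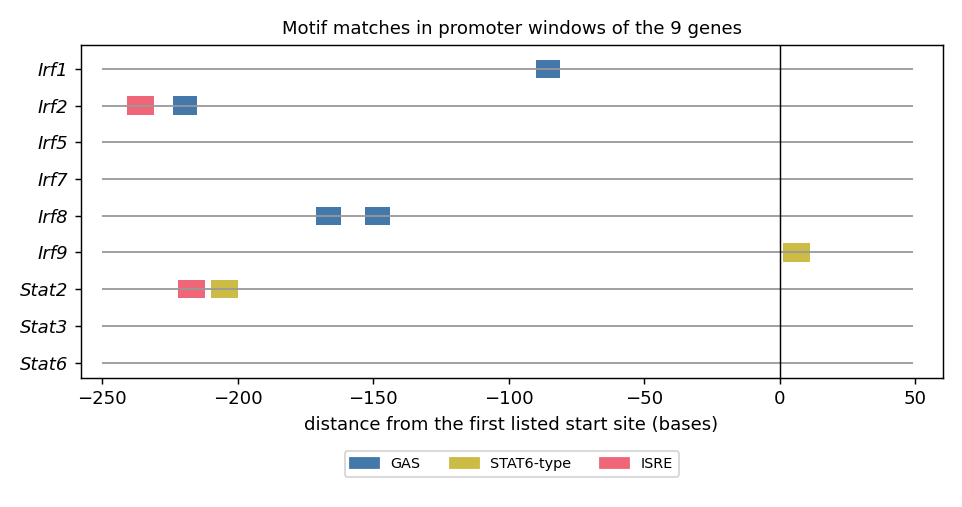
Positions of motif matches in the first listed promoter window of each of the 9 genes, on a horizontal axis of distance from the start site in bases, with GAS in blue, STAT6-type in yellow and ISRE in red. GAS matches appear in Irf1, Irf2 and Irf8, ISRE matches in Irf2 and Stat2, and the windows of Irf5, Irf7, Stat3 and Stat6 are empty.

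Expression was deposited as CPM (reads scaled to the library total, with a further factor per library) and as TPM, which is scaled for gene length as well. Because every CPM value stood for a whole number of reads, library totals could be recovered, and they lay between 33573852 and 40785872 reads per library. The 9 genes had between 1009 and 13572 reads in a library. The 8 macrophage markers all passed the filter on low values and summed to 35961.8 and 33919.6 CPM in Con and 28503.8 and 26917.9 CPM in Fat. Most of each sum was Lyz2, at 28720 and 26820 CPM in Con and 21520 and 20350 CPM in Fat. Lyz2 was not called (limma adjusted p = 0.209). In 6 of the 8 markers both Fat libraries lay below both Con libraries. Their median log2 fold change was -0.20, and Mertk (-0.31) and Fcgr1 (-0.88) were called lower. Cd68 (0.09) and Itgam (0.07) had positive log2 fold changes and were not called. Of the 7 adipocyte markers, Adipoq and Lep were at 0 reads throughout Con, whereas the Fat libraries held 28 and 14 reads of Adipoq and 30 and 18 of Lep. Lipe was at 20.1 and 20.02 CPM in Con and 16.3 and 18.6 CPM in Fat and was not called, and Cidec was called higher (log2 fold change 3.63, limma adjusted p = 0.0044). The T cell markers Cd3d, Cd3e, Cd3g and Cd8a summed to 5.04 and 4.05 CPM in Con and 2.76 and 2.44 CPM in Fat. Of the 3 tested, 0 were called by limma, edgeR or DESeq2, while Cd3g (-0.79) and Cd3d (-0.78) had an unadjusted limma p under 0.05. The 6 dendritic cell markers summed to 18.1 and 13.9 CPM in Con and 12.5 and 9.34 CPM in Fat, with 0 of the 3 tested called by any of these tools and Clec9a (-0.60) under an unadjusted limma p of 0.05. Among fibroblast markers Dcn was called lower (-0.82; not with DESeq2), and of the neutrophil, B cell and endothelial markers 0 were called by the 3 tools, with 2, 0 and 0 at an unadjusted limma p under 0.05. Fewer cells of a type and less RNA per cell cannot be told apart in these bulk libraries, and the part these markers have in the results was not tested.

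The comparison of Fat with Con asked how taking up necrotic fat changes macrophages in an osteonecrotic environment. It was made with limma on log2(CPM + 0.1) over the 12470 genes that reached 0.5 CPM in 2 or more libraries, with Benjamini-Hochberg adjustment over all of them and a call at an adjusted p-value under 0.05. Irf1, Irf8 and Irf2 fell in Fat, and the other 6 genes were not called. These 3 of 9 stand beside 5.0% of all tested genes called lower. No gene of the 9 was called higher (0 also at an unadjusted limma p under 0.05, with edgeR and with DESeq2), against 3.99% of all tested genes. In 7 of the 9 genes both Fat libraries lay below both Con libraries, which held for 26.2% of tested genes. In 0 of the 9 did both Fat libraries lie above both Con libraries, against 29.4% of tested genes. The median log2 fold change of the 9 was -0.27, beside 0.01 for all tested genes. By family, 3 of 6 IRF genes and 0 of 3 STAT genes were called lower (Stat2 alone of the STATs had an unadjusted limma p under 0.05, and edgeR and DESeq2 called 0). Without limma's mean-variance trend 0 of the 9 were called, while 3 had an unadjusted p under 0.05, and of all tested genes 12 were called lower and 19 higher. Among the pathway genes named with a call, Cxcl10 alone kept it in that fit.

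**Figure D2:**
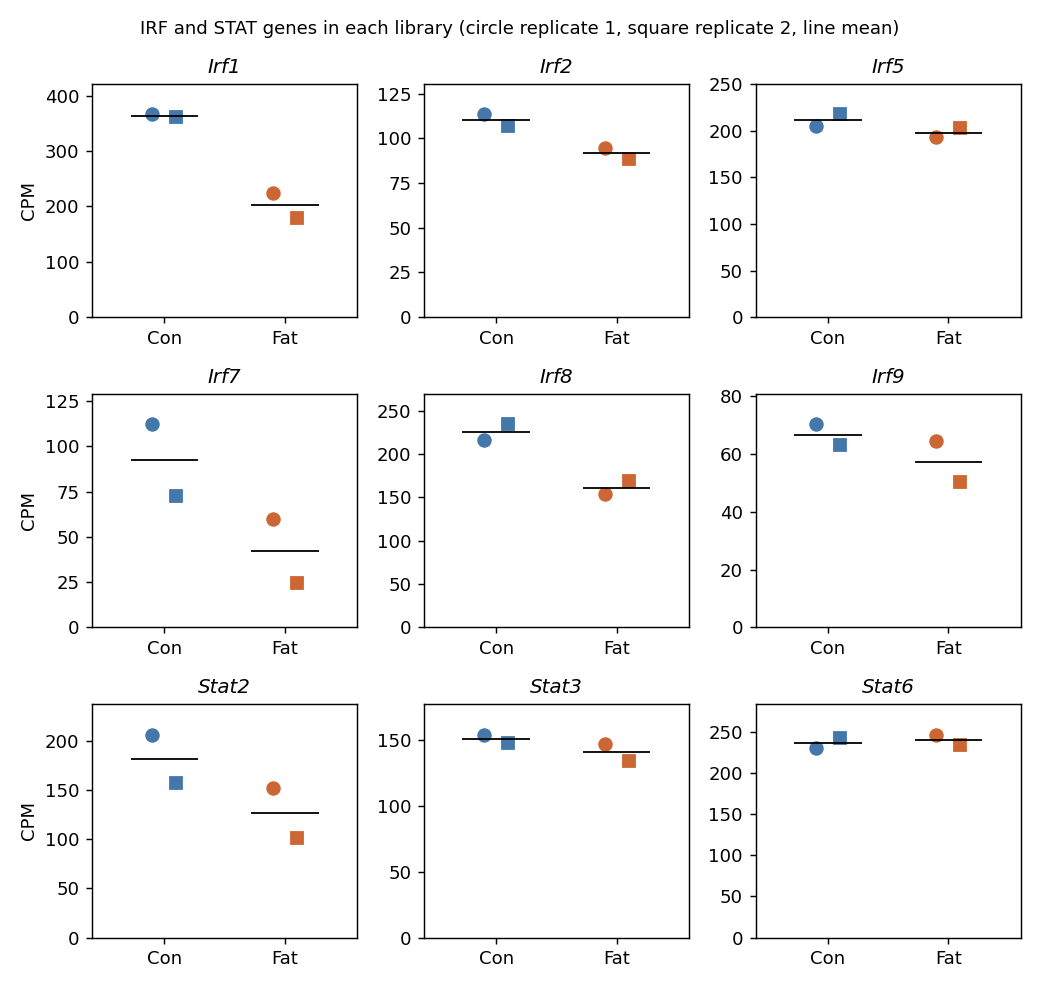
CPM of the 9 genes in each library, on a linear axis from 0 in each panel, with Con in blue, Fat in orange, circles for replicate 1, squares for replicate 2 and a line at the mean of the 2 libraries. Irf1 and Irf8 show a wide gap between the media, Irf7 and Stat2 a narrow gap beside a wide spread within each medium, and the media overlap in Irf9 and Stat6.

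Irf1 is induced by interferon gamma and activates many antimicrobial and antigen-presentation genes. Its level was 367 and 362 CPM in Con replicates 1 and 2, and 224 and 180.0 CPM in Fat replicates 1 and 2. The Fat libraries were far below the Con libraries, with 137 CPM between the lowest Con and the highest Fat value. The mean fell from 364 ± 3.65 to 202 ± 31.4 CPM (SD, n = 2 each), and the log2 fold change was -0.86 (SE, the standard error, 0.10; adjusted p = 0.00447 by limma). This was the 95th smallest p-value of all tested genes. Fits that omitted a single library gave -1.02 to -0.70, and every one of these called it. Without the mean-variance trend the adjusted p was 0.0831.

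Irf2, the attenuator that competes with IRF1 for the same element, was at 114 and 107 CPM in Con and at 94.4 and 88.7 CPM in Fat. Both Fat values lay below both Con values, by a narrower margin of 12.5 CPM. It fell by 0.27 on the log2 scale (SE 0.06, adjusted p = 0.0371 by limma). This call was lost with the TPM values (limma adjusted p = 0.119), without Con replicate 1, without Fat replicate 2 and without the mean-variance trend (0.163). The TPM values gave the same direction. Dropping the trend leaves the fold change as it was, and omitting a library cannot turn its sign where the media do not overlap. The 95% interval of the log2 fold change was -0.41 to -0.13 for Irf2 and -1.09 to -0.63 for Irf1, so the intervals did not overlap. The ratio of Irf1 to Irf2 CPM was 3.23 and 3.39 in Con and 2.38 and 2.03 in Fat. Activator and attenuator were therefore in a lower ratio in both Fat libraries, with a log2 difference of -0.59. An exact two-sided permutation test gave p = 0.33, the smallest it can give for 2 libraries against 2.

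Known targets of IRF1 were listed with earlier results of these data known, so their direction is not independent evidence. All 15 passed the filter, and 14 were called lower and 0 higher (0 also at an unadjusted limma p under 0.05, with edgeR and with DESeq2). Their median log2 fold change was -1.29. The largest changes were in Cxcl9 (-2.44) and Cxcl10 (-2.43), chemokines that draw T cells, and in Gbp2 (-2.26) and Gbp5 (-2.15), guanylate-binding proteins that act against intracellular microbes. Nlrc5, an activator of MHC class I genes, was the member not called (log2 fold change -0.57, limma adjusted p = 0.052). With TPM values 9 of the 15 were called lower.

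Irf8 is required for the monocyte and macrophage lineage and binds DNA together with PU.1 or BATF proteins. Its level was 217 and 234 CPM in Con and 154 and 169 CPM in Fat. The Fat libraries again lay clearly below, with a gap of 47.7 CPM. From 225 ± 12.6 CPM the mean fell to 161 ± 10.6 CPM (SD, n = 2 each), which is -0.48 on the log2 scale (SE 0.07, adjusted p = 0.00826 by limma). Omitting any single library gave -0.55 to -0.42, called each time. Without the mean-variance trend the adjusted p was 0.096.

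Among 8 DNA-binding partners and neighbours of IRF8 and IRF1, 3 were called lower and 0 higher (0 also at an unadjusted limma p under 0.05, with edgeR and with DESeq2), and the median log2 fold change was -0.14. Spi1, which encodes PU.1, was at 213 and 241 CPM in Con and 215 and 241 CPM in Fat, so the media overlapped (log2 fold change 0.01, limma adjusted p = 0.973). Batf2, an interferon-inducible partner of IRFs, was at 14.8 and 13.3 CPM in Con and 7.47 and 7.22 CPM in Fat (log2 fold change -0.93, adjusted p = 0.00381). Batf3 fell by 0.57 (adjusted p = 0.0396) and Ikzf1, the gene of Ikaros, by 0.30 (adjusted p = 0.0243) on the log2 scale. Of these 3 calls 1 was left with the TPM values, without Fat replicate 1 and without Fat replicate 2.

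Stat2, the STAT used by type I interferon, was at 206 and 157 CPM in Con and at 152 and 101 CPM in Fat. Fat replicate 1 lay only 5.45 CPM below Con replicate 2, and each medium's replicate 1 was above its replicate 2. The log2 fold change of -0.54 (SE 0.19) had a 95% interval of -0.99 to -0.10 and was not called (limma adjusted p = 0.133). It was -0.25 without Fat replicate 2 and -0.84 without Fat replicate 1. The latter fit called it (adjusted p = 0.00703), as did the one without Con replicate 2 (0.0368). Set against Stat3, which serves other cytokines, the ratio of CPM was 1.34 and 1.06 in Con and 1.03 and 0.751 in Fat. These ratios did not overlap between the media, by a small margin, and the log2 difference was -0.44 (exact two-sided permutation p = 0.33, the smallest possible).

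Irf9, the DNA-binding subunit of ISGF3, was at 70.2 and 63.0 CPM in Con and 64.4 and 50.1 CPM in Fat. Fat replicate 1 was above Con replicate 2, so the media overlapped. The log2 fold change, -0.23 (SE 0.12, 95% interval -0.50 to 0.04), was not called (limma adjusted p = 0.284). That value was -0.05 without Fat replicate 2 and -0.41 without Fat replicate 1, and the second of these was called (adjusted p = 0.0301). About 2.28% of the annotated exon bases of Irf9 lie in exons of Rnf31 on the same strand (GENCODE M21).

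Irf7, which amplifies type I interferon production and is itself an interferon-induced gene, had the largest fold change of the 9 with all 4 libraries, and the largest standard error on the log2 scale. It was at 112 and 72.7 CPM in Con and at 59.99 and 24.6 CPM in Fat. The libraries did not overlap between media, yet Con replicate 1 was 1.54-fold above Con replicate 2 and Fat replicate 1 was 2.44-fold above Fat replicate 2. Its log2 fold change of -1.23 (SE 0.37, 95% interval -2.10 to -0.35) was not called (limma adjusted p = 0.0919). Leaving out Fat replicate 2 gave -0.59 and leaving out Con replicate 1 gave -0.92. Without Fat replicate 1 it was -1.87, and without Con replicate 2 it was -1.54. Both of the latter fits called Irf7, though each left a medium with a single library. Replicate 1 was above replicate 2 in both media in 6 of the 9 genes, namely Irf1, Irf2, Irf7, Irf9, Stat2 and Stat3.

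**Figure D3:**
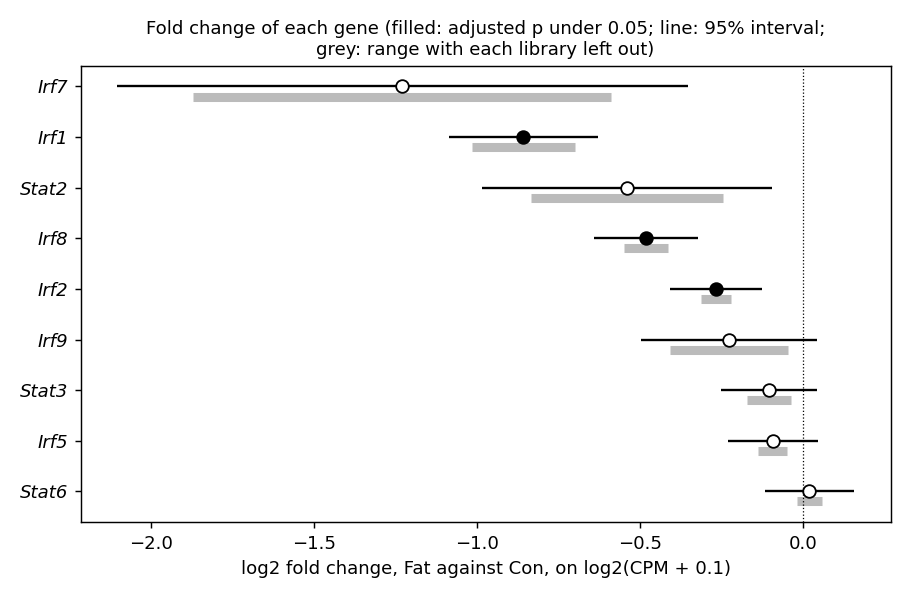
Log2 fold change of Fat against Con for each of the 9 genes on log2(CPM + 0.1), with 95% intervals as lines, filled points for genes called at an adjusted p under 0.05 and grey bars for the range with each library left out. Irf1, Irf8 and Irf2 have short intervals below 0, Irf7 and Stat2 have long ones, and Stat6 lies at 0.02.

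Of 17 known targets of ISGF3, 14 were called lower and 0 higher (0 also at an unadjusted limma p under 0.05, with edgeR and with DESeq2), with a median log2 fold change of -1.30. Ifit2 (-2.64), Ifit3 (-2.28), Ifi44 (-2.28) and Ifit1 (-2.27), which encode interferon-induced antiviral proteins, had the largest changes. Ifi44 lost its call without Con replicate 1 (adjusted p = 0.054), with the TPM values (0.0975) and with DESeq2 (0.0833), and its log2 fold change went from -3.05 to -1.51 when single libraries were omitted. Ifit1 and Ifit3 lost theirs with the TPM values only (0.0504 and 0.0508), apart from the fit without the trend. The count of 14 was 8 without Con replicate 1, 9 without Fat replicate 2, 10 with DESeq2 and 4 with the TPM values, and the list too was drawn up with earlier results known. Of 6 listed interferon genes only 2 had a row in the deposited values, and these were near the limit of detection. Ifng had 13 and 17 reads in Con and 4 and 4 reads in Fat, and Ifnb1 had 1 and 1 reads in Con and 0 in Fat. Neither passed the filter, and in the limma fit with no filter 1 of these 2 genes was called lower.

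Irf5 carries signals from Toll-like receptors to inflammatory cytokine genes. Its level was 205 and 218 CPM in Con and 193 and 203 CPM in Fat. The libraries were separated by only 1.63 CPM, and the log2 fold change of -0.09 (SE 0.06, 95% interval -0.23 to 0.04) was not called (limma adjusted p = 0.389). Exons of Tnpo3 on the other strand cover 14.1% of the exon bases of Irf5 in GENCODE M21, and no source used here says whether reads were counted by strand. Among 11 adaptors and kinases that act upstream of IRF5 and IRF7, 2 were called lower and 0 higher (0 also at an unadjusted limma p under 0.05, with edgeR and with DESeq2), with a median of -0.12. The called genes were Tmem173, which encodes the DNA-sensing adaptor STING, at -0.48 on the log2 scale (adjusted p = 0.0121), and Ikbke, a kinase of IRF3 and IRF7, at -0.39 (adjusted p = 0.0282). With TPM values neither was called, and without Con replicate 1 or Fat replicate 2 the count was 1. Of 6 cytokine genes known as IRF5 targets only Tnf and Il1b passed the filter. Tnf was at 24.4 and 24.2 CPM in Con and 16.4 and 14.8 CPM in Fat, and Il1b at 20.02 and 13.6 CPM in Con and 6.94 and 5.29 CPM in Fat. Both were called lower (adjusted p = 0.00611 and 0.00759), and both also respond to NF-kB.

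Stat3 was at 154 and 148 CPM in Con and 147 and 134 CPM in Fat. The media were separated by 0.856 CPM, and the log2 fold change of -0.10 (SE 0.06, 95% interval -0.25 to 0.04) was not called (limma adjusted p = 0.368). Of 10 known STAT3 targets 1 was called lower and 0 higher (1 at an unadjusted limma p under 0.05, and 0 adjusted with edgeR and with DESeq2), and their median was 0.02. When Con replicate 2 was omitted 1 was called higher, and without Fat replicate 1 the count was 2. The gene called was Socs3, a feedback inhibitor of the IL-6 receptor, at 13.3 and 13.0 CPM in Con and 9.81 and 7.63 CPM in Fat (log2 fold change -0.60, adjusted p = 0.0297). That call was lost with the TPM values, without Con replicate 1 and without Fat replicate 2.

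Stat6, the STAT of IL-4 and IL-13, was the gene nearest to no difference. Its level was 231 and 243 CPM in Con and 246 and 233 CPM in Fat, so the libraries of both media lay within the same range. The log2 fold change of 0.02 (SE 0.06) was not called (adjusted p = 0.882 by limma), with a 95% interval of -0.12 to 0.16 that leaves room for a small difference either way. Of 11 known STAT6 targets 7 passed the filter, and these went both ways, with 2 called lower, 1 higher and a median of -0.36. Arg1, which encodes arginase 1, was called higher (log2 fold change 1.14). Mgl2, a lectin of alternatively activated macrophages, was at 1.03 and 1.41 CPM in Con and 0.375 and 0.512 CPM in Fat (log2 fold change -1.28, adjusted p = 0.0371), and Cish, a STAT-induced inhibitor, was the other gene called lower (-1.06). Mgl2 lost its call when any single library was omitted (adjusted p between 0.0544 and 0.156), with the TPM values (0.0691) and with DESeq2 (0.0687), and Cish with the TPM values (0.0587), whereas Arg1 was called in each of these fits.

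Receptors and kinases sit upstream of the STATs, and most of them were not called. Of 11 receptor chains 2 were called lower and 0 higher, with a median of -0.07. Both belong to the IL-4 and IL-13 receptors, but the change was not particular to these. Il10ra, of the IL-10 receptor, had a log2 fold change of -0.27 and missed the call narrowly (limma adjusted p = 0.0565). With median-ratio scaling and with DESeq2, 3 receptor chains were called lower. Il4ra was at 221 and 218 CPM in Con and 190.3 and 182 CPM in Fat (log2 fold change -0.24, limma adjusted p = 0.0366), and Il13ra1 at 48.5 and 47.2 CPM in Con and 39.1 and 31.2 CPM in Fat (-0.45, adjusted p = 0.0372). Ifnar1 and Ifnar2, the type I interferon receptor, had log2 fold changes of -0.04 and -0.07, and Ifngr1 and Ifngr2, the interferon gamma receptor, 0.06 and -0.18, with none of these called. Of the 4 JAK genes Jak2 was called lower, from 79.2 and 71.7 CPM in Con to 64.1 and 58.9 CPM in Fat (-0.29, adjusted p = 0.0476). With TPM values, without Con replicate 1 or without Fat replicate 2, 0 receptors and 0 kinases were called. Il4ra lost its call whichever single library was omitted, with log2 fold changes between -0.27 and -0.20. Jak2 also lost its call with either other filter on low values (limma adjusted p = 0.0592 with none and 0.054 with a mean of 5 CPM or more). For the receptors, kinases and feedback genes 0 were called higher by edgeR, by DESeq2 or at an unadjusted limma p under 0.05.

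Feedback genes that switch off JAK-STAT signals were called lower in 6 of 13 cases, with a median of -0.15. The largest changes were those of Usp18 (log2 fold change -1.71), which blocks the type I interferon receptor, Cish (-1.06), Socs1 (-1.02), which inhibits JAKs, and Ptpn6 (-0.70), which encodes the phosphatase SHP-1. Ptpn6 stood out by its level, at 463 and 446 CPM in Con and 289 and 269 CPM in Fat (limma adjusted p = 0.00286). Socs1 was low, at 4.33 and 3.81 CPM in Con and 2.22 and 1.71 CPM in Fat (adjusted p = 0.0170), and its call was lost without Con replicate 1 (0.0662) and without Fat replicate 2 (0.0532). Usp18 lost its call without Con replicate 1 (0.055), with the TPM values (0.09) and with DESeq2 (0.0663). The PIAS family, which restrains STATs in the nucleus, had 0 of 4 genes called. The count of 6 dropped to 2 with the TPM values, 2 without Con replicate 1 and 3 without Fat replicate 2.

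**Figure D4:**
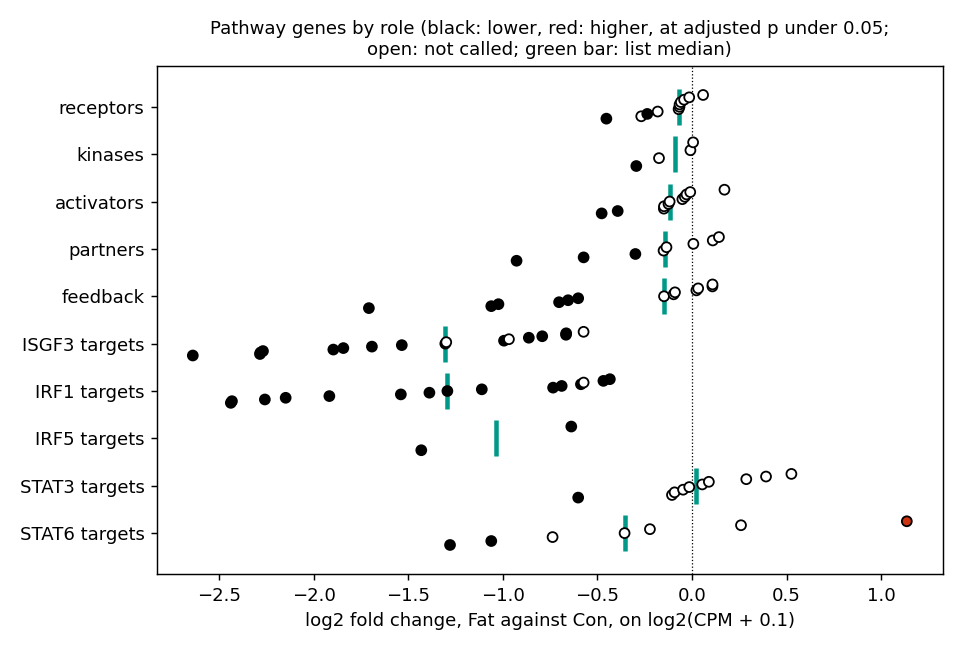
Log2 fold change of Fat against Con on log2(CPM + 0.1) for the tested genes of each list, with black points for genes called lower, red for higher, open points for genes not called and a green bar at the list median. Points of the ISGF3 and IRF1 target lists lie far to the left, while receptors, kinases and STAT3 targets gather near 0.

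On the TPM scale, which allows levels of different genes to be compared, Irf1 was the most abundant of the 9 in Con (235 ± 5.60 TPM, SD, n = 2), followed by Irf5 (191 ± 5.75 TPM), Irf8 (173 ± 7.28 TPM) and Stat6 (135 ± 3.08 TPM). These 4 kept that order in both Con libraries. Irf7 (108 ± 34.0 TPM), Irf2 (96.2 ± 5.46 TPM) and Stat2 (89.8 ± 18.4 TPM) came next, and their order was not the same in both libraries. The difference between Stat6 and Irf7 was within the spread of Irf7. Stat3 (73.1 ± 3.07 TPM) and Irf9 (53.7 ± 4.82 TPM) were lowest. In Fat the order was Irf5 (183 ± 6.56 TPM), Stat6 (139.7 ± 5.43 TPM), Irf1 (133 ± 20.8 TPM) and Irf8 (126 ± 8.20 TPM), with Irf5 first in both Fat libraries and the other 3 changing places between them. Irf7 was at 50.4 ± 29.8 TPM in Fat, close to Irf9 at 47.2 ± 8.35 TPM, and these too changed places between the libraries. Irf1 thus stood above Irf5 in both Con libraries and below it in both Fat libraries.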

How the data were processed

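RNA of mouse macrophages was measured in 4 libraries, grouped by the Con and Fat names of their labels. The authors made stranded mRNA libraries, read 75 bases from 1 end, and deposited the values as CPM and as TPM per gene symbol for 17013 genes. GRCm39 is the build in the submitters' processing notes, and the aligner, the counter and the annotation are not given in the sources used here. Reads were recovered from the CPM values deposited by the authors as whole multiples of the smallest step of a library (100% of values, tolerance 0.001 reads). Between replicates of a medium, reads varied 12.8 and 12.4 times as much as counting alone gives (Con and Fat), so they are separate libraries.

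The paper names edgeR for counts. Since the unit is CPM, the test was that of limma 3.58.1 (run under R 4.3.3, two-sided, mean-variance trend) on log2-transformed CPM with 0.1 added, and edgeR 4.0.16 (quasi-likelihood) and DESeq2 1.42.0 were run on the recovered reads as alternatives. Further alternatives changed the pseudocount to 1 CPM, dropped the filter or replaced it by a mean of 5 CPM or more, used TPM or median-ratio scaling, added the replicate number as a block, dropped the trend, and omitted single libraries. Tested on simulated counts for 12470 genes with 200 changed, limma recovered 96.5% with 18 false calls. Recovery at the fold changes of Irf1, Irf2 and Irf8 was not tested. Fold changes understate the change of low genes because of the pseudocount.

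The 9 genes and all gene lists were chosen with earlier results of these data known. Named are the 9 genes and, from each list, up to 4 called genes with the largest change, and the rule's further item, other genes of the same families, is not reported here. Spi1, Nlrc5, Il10ra, the interferon genes and receptors, the cell type markers and the PIAS genes were named after their values were seen. The marker Adgre1 was found under its older symbol Emr1. No stretch of 75 bases in GENCODE M21 transcripts of 7 of the 9 genes was found in another gene, against 0.854% of stretches for Irf9 and 0.113% for Stat2. Motifs were searched, and figures drawn, with Python 3.11.15, pandas 2.3.3 and matplotlib 3.10.9.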

Additional observations from a re-analysis of the deposited data

How the results depend on the processing

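Counts of genes called lower and higher in Fat were 624 and 498. They were 170 and 237 with the TPM values, 12 and 19 without the mean-variance trend, and, when single libraries were omitted, 275 to 600 and 194 to 514. Of the calls, 44.4% were higher with CPM and 58.2% with TPM. Of the 9 genes, 3 were called lower, 0 without the trend (3 at an unadjusted p under 0.05), and 2 to 6 when single libraries were omitted. Irf1 and Irf8 were called in every alternative run but the one without the trend. The cause of these differences was not tested, though leaving out a library also leaves fewer samples. Omitting single libraries gave log2 fold changes of Stat6 from -0.0197 to 0.0583, the sign turning without Con replicate 1 and without Fat replicate 1, and none of these was called. The direction of the other 8 genes was negative in all 13 alternatives. Changing the filter, adding the block and dropping the trend leave a fold change as it was. Nor can omitting a single library turn the sign in the 7 genes whose media did not overlap. Both ratios kept their direction in the 5 alternatives run for them, which was fixed in advance. They did not overlap between media, and TPM scales each gene by its length, which leaves the log2 difference as it was.

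The labels number the replicates, and nothing says that a number marks a shared animal or day. With the replicate block 1242 genes were called lower and 1278 higher, and 6 of the 9 genes were called lower, Irf7, Stat2 and Irf9 being added. Deviations of same-numbered libraries correlated at 0.20 across 12470 genes, which are not independent. With a sole pair per medium this does not establish pairing. Median-ratio scaling moved the median of all genes by -0.01 and TPM by 0.03 on the log2 scale. The 9 genes had at least 1009 reads in each library, so the spread between libraries and not read counting limits them. Ifng and Ifnb1, in contrast, had few reads and did not pass the filter.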
